A study of Homo sapiens with 10 samples.

Results

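The HOX cluster genes are the homeobox genes of the HOXA, HOXB, HOXC and HOXD clusters. Members were taken by name from the deposited transcript annotation, as every gene whose symbol is HOX followed by A, B, C or D and a number. This gave 39 genes of 57110 gene identifiers and 68 transcripts of 99493. HOXA had 11 genes, HOXB had 10, and HOXC and HOXD had 9 each. A pair of members shares an identifier with an overlapping gene, HOXA9 with AC004080.3 and HOXD3 with AC009336.2, and their counts include both. Of the 39 genes, 20 reached 10 TPM in a library.

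HOX proteins are homeodomain transcription factors that give cells their position along the head-to-tail axis. Genes at the 3′ end of a cluster carry low numbers and act towards the head, and genes at the 5′ end carry high numbers and act towards the tail. Genes with the same number in different clusters descend from a common gene and are called paralogs. In the female reproductive tract, HOXA9, HOXA10, HOXA11 and HOXA13 mark successive segments of the Müllerian duct, from which oviduct, uterus, cervix and upper vagina form. HOX proteins bind DNA together with the TALE homeodomain proteins of the PBX, MEIS and PKNOX families, and Polycomb and trithorax proteins hold the clusters silent or active.

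RNA of 7 established human ovarian cancer cell lines was sequenced on nanopore instruments, in 10 libraries. IGROV-1 had 2 PromethION and 2 MinION libraries. The other lines, COV362, COV504, SK-OV-3, OVTOKO, OVKATE and OVMANA, had 1 PromethION library each and so no replicate of their own. The labels name no treatment, and total RNA was the starting material in each. The labels do not say whether the IGROV-1 libraries came from separate cultures, so p-values measure only the spread between these libraries, which may be technical. Levels are the deposited TPM, a gene's counts scaled to a fixed library total. Such scaling does not allow for differences in RNA composition. The TMM factors of edgeR, which do, ranged from 0.916 in OVTOKO to 1.19 in OVKATE. A nanopore read comes from a single molecule, and these values are not divided by transcript length.

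Library totals lay between 1729782 and 3666224 counts. Of 5 Müllerian markers, PAX8 lay between 84.1 and 340 TPM and SOX17 between 10.4 and 146 TPM over all libraries. The other 3 were absent from part of them: WT1 had counts in OVKATE and COV362 alone, EMX2 had none in OVMANA, OVTOKO or IGROV-1, and MUC16 had none in OVTOKO or SK-OV-3 and at most 0.86 TPM in IGROV-1. The epithelial markers EPCAM, KRT7 and CDH1 were at most 1.54 TPM in every IGROV-1 library, and KRT7 and CDH1 had no count there. KRT18 in IGROV-1 had 263 TPM (PromethION) and 244 TPM (MinION) in replicate 1, and 1041 and 1080 TPM in replicate 2. Libraries with the same number were thus alike for it, though the labels do not say that they share material. Of 6 fibroblast markers, COL1A2 reached 429 TPM in COV362, and COL1A1 reached 219 TPM and LUM 52.7 TPM in SK-OV-3, while the summed level of the 4 leukocyte markers stayed at or under 5.34 TPM. Mitochondrial ribosomal RNA took 9.13% and 10.9% of the counts of the IGROV-1 PromethION libraries and 1.01% to 3.31% elsewhere. The part of these differences in the HOX results was not tested.

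The homeobox, the stretch that encodes the DNA-binding homeodomain, was located in all 39 genes, read from GENCODE 29 transcripts on GRCh38. It was 180 bases long, unbroken by an intron and in the last exon in each. Over all 741 pairs of members the identity of the homeobox ranged from 47.8% to 91.1%, and no pair was identical. HOXB7 and its chromosomal neighbour HOXB6 are shown because HOXB7 had the highest level of all members and HOXB6 the homeobox most like it, with 88.9% identity. Capitals mark the 20 bases that differ between them. The positions are chr17:48596473-48596652 (HOXB6) and chr17:48607908-48608087 (HOXB7), both on the minus strand.
HOXB6: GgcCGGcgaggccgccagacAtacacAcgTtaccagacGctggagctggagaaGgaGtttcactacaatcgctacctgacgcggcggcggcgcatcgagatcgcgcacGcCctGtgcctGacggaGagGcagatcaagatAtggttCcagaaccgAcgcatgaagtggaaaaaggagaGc
HOXB7: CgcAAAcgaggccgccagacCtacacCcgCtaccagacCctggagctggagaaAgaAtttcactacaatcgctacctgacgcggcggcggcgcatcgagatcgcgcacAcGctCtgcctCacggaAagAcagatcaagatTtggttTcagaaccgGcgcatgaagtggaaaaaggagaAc
None of the differing bases lies between bases 58 and 108 of the box, counted from its 5′ end. The genes also had separate levels, since OVKATE had 168 counts of HOXB7 and 0 of HOXB6.

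Promoter windows from RefSeq on GRCh38.p14, 250 bases before to 50 bases after an annotated start, matched 20 of the 39 members, with 27 windows. HOX windows held a median of 22 CG dinucleotides, against 14 over all 35116 windows. The windows of HOXA7 and HOXA10 are shown as genes at or near 0 in IGROV-1 and high in other lines. The HOXA3 window is shown as one at which a transcript that was well detected starts. Capitals mark CG dinucleotides, and the strand is minus for all. The windows are chr7:27156626-27156925 (HOXA7), chr7:27174271-27174570 (HOXA10) and chr7:27119546-27119845 (HOXA3).
HOXA7: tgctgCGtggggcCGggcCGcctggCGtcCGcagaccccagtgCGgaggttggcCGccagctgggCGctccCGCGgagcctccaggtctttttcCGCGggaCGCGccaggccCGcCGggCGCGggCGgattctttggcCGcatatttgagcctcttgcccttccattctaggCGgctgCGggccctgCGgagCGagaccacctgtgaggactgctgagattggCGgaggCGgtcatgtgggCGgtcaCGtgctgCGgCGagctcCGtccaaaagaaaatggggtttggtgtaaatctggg
HOXA10: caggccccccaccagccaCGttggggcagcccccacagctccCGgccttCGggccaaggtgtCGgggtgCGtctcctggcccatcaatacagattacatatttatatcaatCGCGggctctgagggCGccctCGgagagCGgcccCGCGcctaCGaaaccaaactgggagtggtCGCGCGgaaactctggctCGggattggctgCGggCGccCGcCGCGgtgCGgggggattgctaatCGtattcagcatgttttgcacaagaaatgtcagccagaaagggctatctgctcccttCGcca
HOXA3: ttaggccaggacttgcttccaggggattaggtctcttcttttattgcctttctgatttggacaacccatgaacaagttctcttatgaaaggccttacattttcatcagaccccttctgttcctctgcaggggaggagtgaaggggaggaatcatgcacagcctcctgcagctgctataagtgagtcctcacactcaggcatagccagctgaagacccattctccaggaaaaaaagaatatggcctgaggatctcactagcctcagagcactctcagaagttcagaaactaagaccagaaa
The windows shown hold 31 CG dinucleotides for HOXA7, 25 for HOXA10 and 0 for HOXA3, the lowest number of any HOX window. HOXA3 also had other windows, with 6 to 29 CG dinucleotides, and HOXA10 another with 21. The motif TGATNNAT, a composite site described for PBX with HOX proteins, was searched on both strands as the only motif. It was present in 3 of the 27 HOX windows (HOXA2, HOXB1 and HOXD11) and in 7.4% of all windows.

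Summed over a cluster, HOXB was the most abundant in every library. The HOXB genes, on chromosome 17 from 48528526 to 48729178, summed to 720 TPM in SK-OV-3, 335 in COV504, 259 in COV362, 101 in OVTOKO, 83.1 in OVKATE and 70.0 in OVMANA. IGROV-1 had 240 ± 15.4 TPM (SD, n = 2) of HOXB on PromethION and 264 ± 5.4 (SD, n = 2) on MinION. SK-OV-3 and COV504 lay above and OVMANA, OVKATE and OVTOKO below the whole IGROV-1 range, while COV362 lay within it. The order of OVMANA and OVKATE depended on the scaling. In bulk RNA, fewer cells that express a gene and less RNA per cell cannot be told apart.

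HOXA, on chromosome 7 from 27092993 to 27200106, summed to between 26.3 TPM in SK-OV-3 and 84.5 TPM in COV504, with 39.4 ± 12.6 (SD, n = 2) in IGROV-1 on PromethION. HOXD, on chromosome 2 from 176092891 to 176190907, was highest in OVKATE at 67.8 TPM and SK-OV-3 at 49.6 TPM, against 9.85 ± 2.99 (SD, n = 2) in IGROV-1. HOXC, on chromosome 12 from 53938765 to 54056030, summed to 44.1 TPM in COV504 and 17.6 in OVMANA. It lay at 1.52 TPM in SK-OV-3, the line with the most HOXB, and at 10.7 ± 1.25 (SD, n = 2) in IGROV-1. HOXB thus took 90.3% of all HOX counts in SK-OV-3 and 39.5% in OVMANA.

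**Figure D1:**
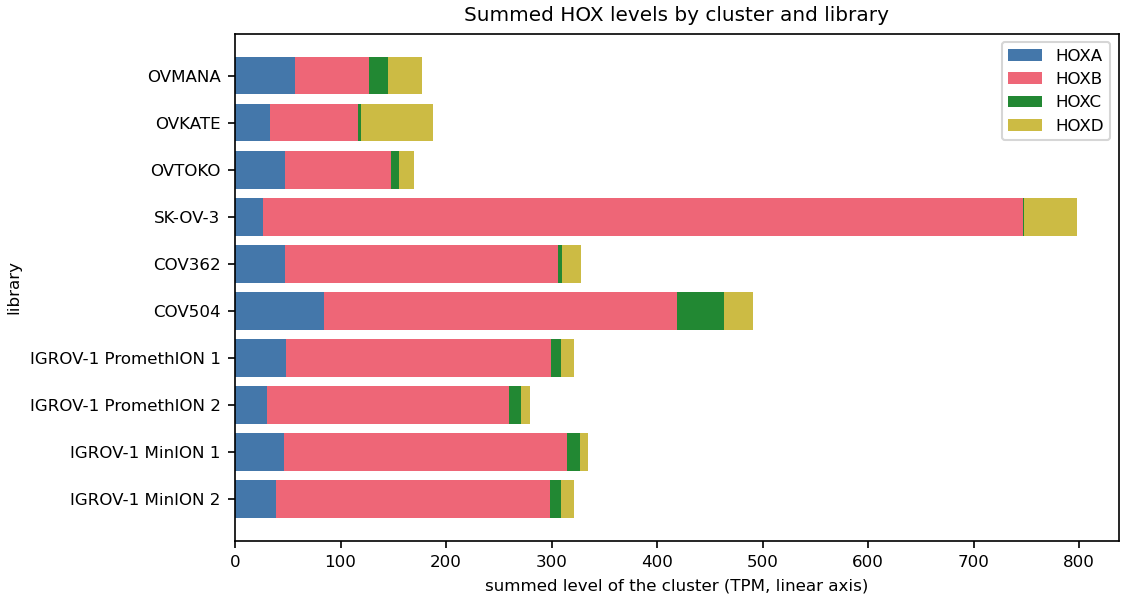
Summed level of each HOX cluster (x axis, TPM, linear) in each of the 10 libraries (y axis); colours are the clusters. HOXB is the widest segment in every library, from 70.0 TPM in OVMANA to 720 TPM in SK-OV-3.

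Between 14 (OVKATE) and 33 (COV504) of the 39 genes had at least 1 count in a library. COV504 held the highest level of 12 genes and SK-OV-3 of 10. No minimum was set for this, and HOXC12 and HOXC13 led in COV504 with 1 count each. There were 6 genes detected in all 10 libraries, HOXB7 among them. HOXB1 and HOXD12 had no count in any library. A count of 0 allows up to 3 counts, a floor between 0.818 and 1.73 TPM in a single library and 0.64 TPM over both IGROV-1 PromethION libraries. Such floors and the intervals below cover counting error only. A fold given as at least a value sets the measured level of the other side, without its counting error, against such a floor. It is thus bounded on the side of the 0 count only.

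**Figure D2:**
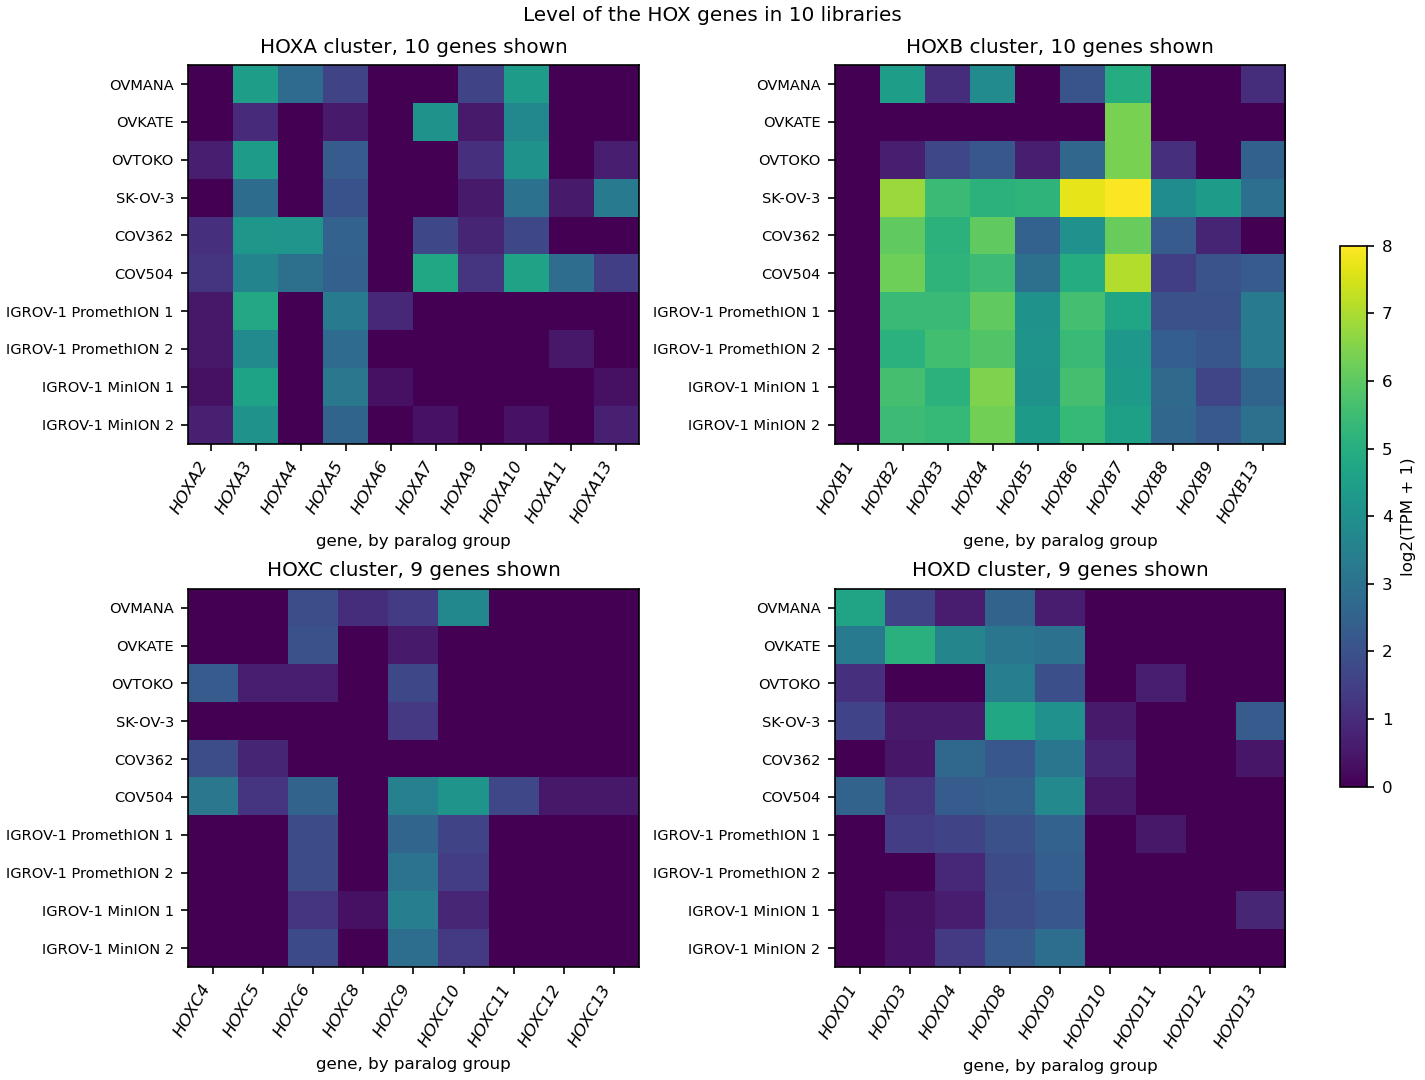
Level of the HOX genes, as log2(TPM + 1) in colour, in each cluster (panels) by paralog group (x axis) and library (y axis). HOXB7 is the column of HOXB with counts in every library, and in OVKATE it is the single HOXB gene above 0.

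The design allows comparison of each line with IGROV-1 on PromethION. The 6 comparisons share the IGROV-1 libraries, so they are given side by side and not counted as independent. A gene was called at an adjusted p under 0.05 in edgeR's quasi-likelihood test with Benjamini-Hochberg adjustment over 13030 genes. The spread comes from the IGROV-1 replicates alone, and a line with a single library is taken to have that same spread. Of the 39 members 26 passed the expression filter. The remaining 13, which were not tested, were HOXA2, HOXA6, HOXA9, HOXB1, HOXC5, HOXC8, HOXC11, HOXC12, HOXC13, HOXD10, HOXD11, HOXD12 and HOXD13.

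OVKATE had the most calls, 6 members higher and 13 lower than IGROV-1, where 49.2% of all tested genes were called (26.8% higher, 22.4% lower). In SK-OV-3 10 were higher and 6 lower, with 41.8% of all tested genes called (22.0% higher, 19.8% lower). In COV362 6 were higher and 7 lower, with 42.5% called (23.7% higher, 18.8% lower). In COV504 10 were higher and 2 lower, with 43.5% called (24.0% higher, 19.6% lower). In OVMANA 4 were higher and 7 lower, with 35.4% called (18.9% higher, 16.5% lower), and in OVTOKO 4 were higher and 6 lower, with 34.1% called (18.2% higher, 15.9% lower). A member that passed the filter only through the line in which it was high had to differ, so these counts say little about the clusters as such. HOXA4, HOXA7, HOXA10, HOXA11, HOXA13, HOXB9, HOXC4, HOXC6, HOXC10, HOXD1, HOXD3, HOXD4 and HOXD8 passed only through lines in which they exceeded IGROV-1. Their p-values below carry the same limit. DESeq2 had 37 members in its test set and called fewer of them in each line. The calls were 6 in OVMANA (7.06% of all genes called), 9 in OVKATE (10.2%) and 6 in OVTOKO (6.41%). There were 3 in SK-OV-3 (8.15%), 1 in COV362 (7.64%) and 3 in COV504 (8.53%).

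Among the 7 lines, 25 of the 26 tested members differed by edgeR's joint test with Benjamini-Hochberg adjustment, where 81.3% of all genes did. HOXA5, a gene needed for lung development, was the exception (adjusted p = 0.062), with 0.50 TPM in OVKATE and 2.14 to 8.54 TPM in the other libraries. Over the 21 pairs of lines, 252 of 546 tests of a member were called, where 35.4% of all tests were. Without IGROV-1 MinION replicate 1 the number was 176 of 546 (32.2%), where 22.1% of all tests were called.

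HOXB7, at chr17:48607227-48611020, is a trunk gene often found raised in ovarian and breast carcinomas. Its level was 249 TPM in SK-OV-3, 135 in COV504, 83.1 in OVKATE, 82.7 in OVTOKO, 69.3 in COV362 and 29.9 in OVMANA. IGROV-1 had 25.6 and 18.0 TPM on PromethION and 19.4 and 22.2 on MinION. Every other line lay above all 4 IGROV-1 libraries. By edgeR with Benjamini-Hochberg adjustment HOXB7 was higher than in IGROV-1 by a log2 change of 3.28 in SK-OV-3 (SE 0.20, adjusted p = 1.3e-05). It was higher by 2.54 in COV504, 2.00 in OVTOKO, 1.71 in COV362 and 1.62 in OVKATE on the log2 scale, with adjusted p of at most 0.00057 in edgeR. For OVMANA the log2 difference was 0.52 (SE 0.27, edgeR adjusted p = 0.17), which was not a call. The 5 calls were also made by DESeq2.

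The order of the lines by HOXB7 was resolved in part. SK-OV-3 exceeded COV504 by 0.73 on the log2 scale (edgeR adjusted p = 0.035), and COV504 exceeded OVKATE by 0.92 (adjusted p = 0.016). COV504 and OVTOKO did not pass the threshold (edgeR adjusted p = 0.11), nor did OVKATE, OVTOKO and COV362 in any pairing of the 3. OVMANA was lower than each of those 3, with edgeR adjusted p between 0.0059 and 0.013.

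HOXB6, the 5′ side neighbour of HOXB5 and a gene active in lateral mesoderm and blood progenitors, followed another order. It stood at 208 TPM in SK-OV-3, 30.3 in COV504, 15.7 in COV362, 5.20 in OVTOKO, 3.21 in OVMANA and 0 in OVKATE. The IGROV-1 libraries had 47.8 and 41.7 TPM on PromethION and 48.6 and 40.5 on MinION. SK-OV-3 alone lay above IGROV-1, by a log2 change of 1.98 (SE 0.20, edgeR adjusted p = 0.00014, DESeq2 0.0075). OVTOKO and OVMANA were lower by log2 changes of -3.02 and -3.72 (edgeR adjusted p = 0.00057 and 0.00025). OVKATE, with no count, was at least 30.2-fold lower. COV362 was lower by -1.47 (edgeR adjusted p = 0.0032), a call that DESeq2 did not make (adjusted p = 0.14).

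HOXB2, a hindbrain gene, was at 109.9 TPM in SK-OV-3, 74.3 in COV504, 65.0 in COV362, 21.4 in OVMANA, 0.58 in OVTOKO and 0 in OVKATE. IGROV-1 had 41.4 and 33.5 TPM on PromethION and 49.4 and 44.2 on MinION. OVKATE and OVTOKO lay far below the rest, OVKATE at least 25.3-fold below IGROV-1 and OVTOKO by a log2 change of -5.83 (SE 0.59, edgeR adjusted p = 2e-04). SK-OV-3, COV504 and COV362 were higher by 1.32, 0.91 and 0.84 on the log2 scale (edgeR adjusted p = 0.0013, 0.0092 and 0.014). DESeq2 did not make these 3 calls (adjusted p = 0.11, 0.35 and 0.44).

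HOXB3, with roles in hindbrain and blood development, had 43.0 TPM in SK-OV-3, 35.6 in COV504, 34.1 in COV362, 2.31 in OVTOKO, 1.07 in OVMANA and 0 in OVKATE. In IGROV-1 it had 40.6 and 46.8 TPM on PromethION and 34.4 and 39.9 on MinION. The lines fell into a group near IGROV-1 (SK-OV-3, COV504, COV362) and a group far below it. Against IGROV-1 the log2 change was -5.23 in OVMANA (SE 0.46) and -4.13 in OVTOKO (SE 0.41), with edgeR adjusted p of 7.9e-05 and 0.00017, and OVKATE was at least 29.5-fold lower. SK-OV-3 differed from IGROV-1 by -0.25 (SE 0.21, edgeR adjusted p = 0.38).

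HOXB4, a regulator of blood stem cell renewal, was highest in the MinION libraries of IGROV-1, with 87.3 and 78.2 TPM, and had 64.9 and 56.3 TPM there on PromethION. It had 65.0 TPM in COV362, 44.0 in COV504, 34.4 in SK-OV-3, 13.4 in OVMANA, 3.47 in OVTOKO and 0 in OVKATE. COV362 lay within the IGROV-1 range and the other 5 lines below it. OVMANA and OVTOKO were lower by log2 changes of -2.12 and -4.03 (edgeR adjusted p = 0.00067 and 0.00013), and OVKATE was at least 40.8-fold lower. SK-OV-3, which led for HOXB2, HOXB6 and HOXB7, was lower for HOXB4 by -1.04 (SE 0.23, edgeR adjusted p = 0.0072, DESeq2 0.34).

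HOXB5, which acts in neural crest of the gut, had 36.0 TPM in SK-OV-3, 6.67 in COV504, 4.70 in COV362, 0.58 in OVTOKO and 0 in OVMANA and OVKATE. IGROV-1 had 16.2 and 16.8 TPM on PromethION and 16.1 and 19.5 on MinION. OVMANA and OVKATE were at least 10.3-fold and 11.1-fold lower, calls made by edgeR and DESeq2. For SK-OV-3 the log2 change was 0.89 (edgeR adjusted p = 0.023), which rose to 0.066 without IGROV-1 PromethION replicate 1 and to 0.052 without PromethION replicate 2.

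HOXB8, a factor of myeloid progenitors, and HOXB9, a thoracic gene, were low outside SK-OV-3. HOXB8 had 13.7 TPM in SK-OV-3, 3.92 in COV362, 1.78 in COV504, 1.16 in OVTOKO, 0 in OVMANA and OVKATE, and 2.99 to 5.73 TPM in IGROV-1. HOXB9 had 20.3 TPM in SK-OV-3, 3.11 in COV504, 0.78 in COV362, 0 in the other 3 lines, and 2.18 to 3.71 TPM in IGROV-1. HOXB9 was higher in SK-OV-3 by a log2 change of 2.41 (SE 0.45, edgeR adjusted p = 0.0033), a call not made by DESeq2 (adjusted p = 0.54). HOXB13, a prostate and hindgut gene set apart at the 5′ end of the cluster, stayed under 10 TPM, with 8.54 and 8.59 TPM in IGROV-1 on PromethION, 6.58 in SK-OV-3 and 0 in OVKATE and COV362.

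HOXB7 counts made up very different shares of the cluster. All 168 HOXB counts of OVKATE were HOXB7 (100%, 95% Wilson interval 97.8% to 100%), so none of the genes on either side of it was detected. In OVTOKO its share was 82.2% (75.8% to 87.2%), in OVMANA 42.7% (34.6% to 51.3%), in COV504 40.3% (36.8% to 43.8%), in SK-OV-3 34.5% (32.1% to 37.0%) and in COV362 26.8% (23.6% to 30.3%). In IGROV-1 it was 10.2% and 7.9% on PromethION and 7.2% and 8.6% on MinION. No IGROV-1 interval reached above 12.9%, so all 6 other lines lay above them.

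**Figure D3:**
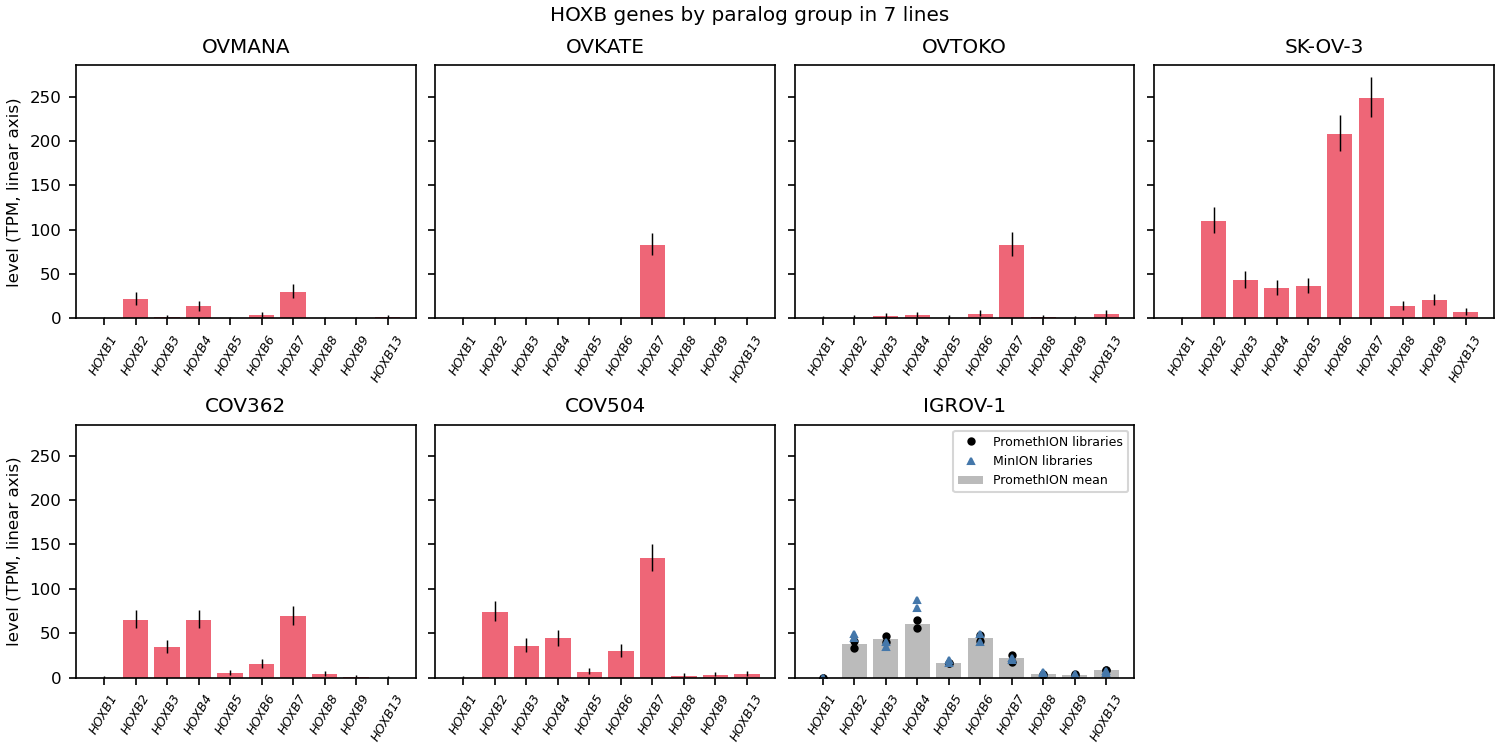
Level (y axis, TPM, linear) of the 10 HOXB genes by paralog group (x axis) in each line (panels); bars are single libraries with 95% Poisson intervals, or for IGROV-1 the PromethION mean with every library as a point. OVKATE shows a single bar at HOXB7 (83.1 TPM), SK-OV-3 peaks at HOXB6 and HOXB7, and IGROV-1 is highest at HOXB4.

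The HOXA genes are described from the 3′ end. HOXA3, needed for thymus and parathyroid, had 27.3 and 12.9 TPM on PromethION and 24.0 and 16.4 on MinION in IGROV-1. It had 20.8 TPM in OVMANA, 20.2 in OVTOKO, 18.0 in COV362, 11.1 in COV504, 6.08 in SK-OV-3 and 0.99 in OVKATE. The spread within IGROV-1 was wide, and OVMANA, OVTOKO and COV362 lay inside it. OVKATE was lower by a log2 change of -4.56 (edgeR adjusted p = 0.0033, DESeq2 0.0093).

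HOXA4, a cervical patterning gene, had 16.9 TPM in COV362 (95% Poisson interval 12.2 to 22.7), 6.67 in COV504 and 5.88 in OVMANA. It had no count in the other 7 libraries. Relative to the floor of IGROV-1 on PromethION it was at least 26.2-fold higher in COV362, 10.4-fold in COV504 and 9.1-fold in OVMANA. edgeR with Benjamini-Hochberg adjustment called all 3 (adjusted p = 0.0011, 0.0061 and 0.0096), and DESeq2 none (0.086, 0.20 and 0.22).

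HOXA7, described in ovarian epithelial tumours with Müllerian-like differentiation, had 26.7 TPM in COV504, 16.3 in OVKATE and 2.35 in COV362. It had 0.31 TPM in MinION replicate 2 of IGROV-1 and no count in the other 6 libraries. COV504 was at least 41.5-fold and OVKATE at least 25.4-fold higher than IGROV-1 on PromethION (edgeR adjusted p = 0.00028 and 0.00077, DESeq2 0.013 and 0.029). HOXA7 and HOXA4 were both present in COV362 and COV504, while OVKATE had HOXA7 alone and OVMANA HOXA4 alone.

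HOXA10, a gene of the uterus and of the receptive endometrium, separated IGROV-1 from the other lines. It had 23.6 TPM in COV504, 20.3 in OVMANA, 16.2 in OVTOKO, 12.4 in OVKATE, 7.09 in SK-OV-3 and 2.35 in COV362. IGROV-1 had no count in 3 libraries and 0.31 TPM in MinION replicate 2. The lowest other line, COV362, lay above all 4, with a 95% Poisson interval of 0.86 to 5.12 TPM. Relative to the floor, HOXA10 was at least 36.7-fold higher in COV504, 31.6-fold in OVMANA, 25.2-fold in OVTOKO, 19.2-fold in OVKATE, 11.0-fold in SK-OV-3 and 3.7-fold in COV362. edgeR called all 6 (adjusted p from 0.00027 to 0.025) and DESeq2 the first 5 (0.00072 to 0.018, and 0.10 for COV362). The COV362 call rests on 6 counts and had an edgeR adjusted p of 0.071 without IGROV-1 MinION replicate 1 and 0.058 without MinION replicate 2.

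The remaining 5′ HOXA genes were low. HOXA9, a gene of the oviduct segment, had 2.14 TPM in OVMANA and at most 1.34 TPM elsewhere, with no count in IGROV-1. HOXA11, a gene of the lower uterus, had 6.23 TPM in COV504 and at most 0.51 elsewhere. HOXA13, a gene of the vaginal segment and the digits, had 8.61 TPM in SK-OV-3, 1.78 in COV504 and at most 0.62 elsewhere. Together HOXA9 to HOXA13 took 63.5% of HOXA counts in SK-OV-3 (95% Wilson interval 49.9% to 75.2%), 37.8% to 39.3% in OVMANA, OVKATE, OVTOKO and COV504, and 6.6% in COV362 (3.4% to 12.4%). In IGROV-1 the share lay between 0.0% and 2.4%, with the highest upper bound at 7.6%. HOXA2 and HOXA6 stayed at or under 1.34 TPM in all libraries.

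**Figure D4:**
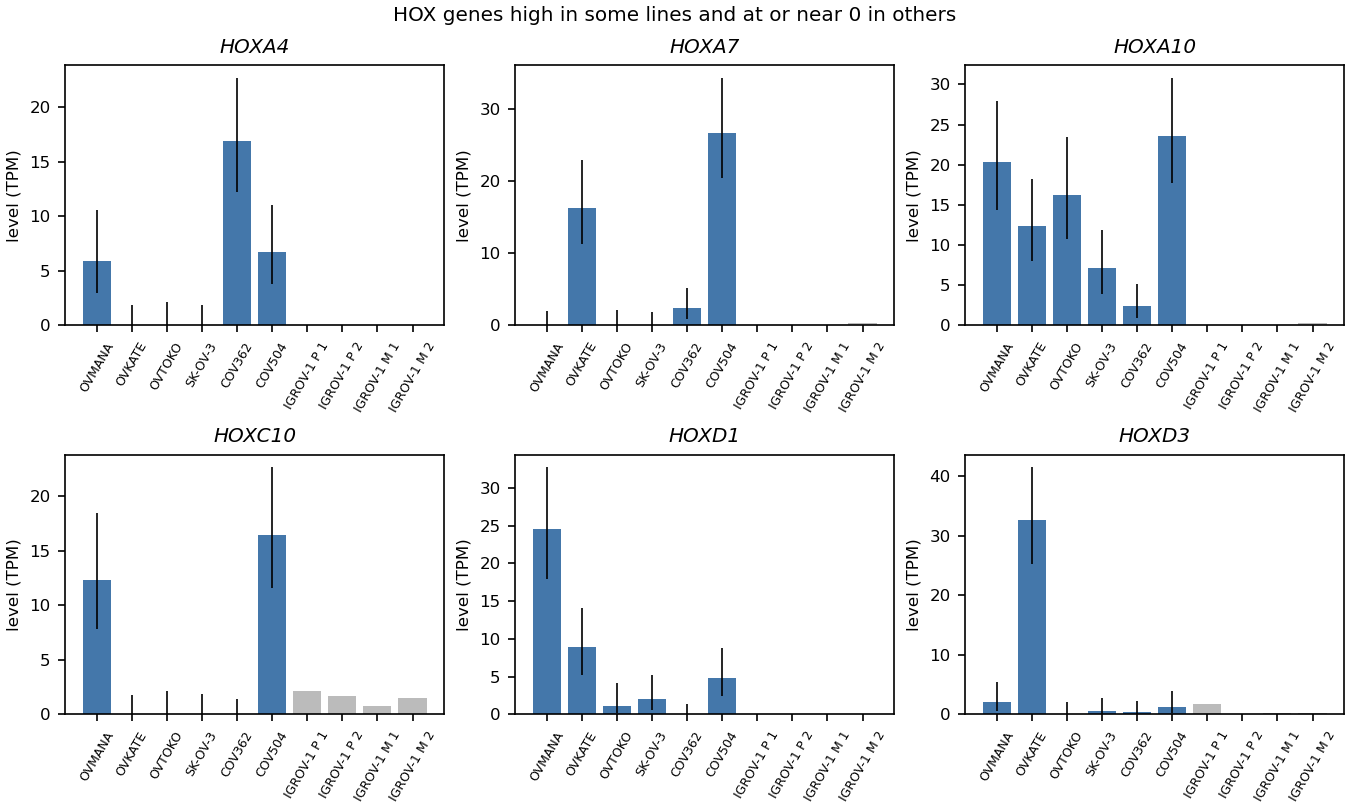
Level (y axis, TPM, linear, a scale per panel) of 6 genes in the 10 libraries (x axis; P is PromethION, M is MinION); blue bars are single libraries with 95% Poisson intervals and grey bars are the IGROV-1 libraries. HOXA10 is above 0 in all 6 blue bars and at most 0.31 TPM in IGROV-1, while HOXD3 is high in OVKATE alone (32.6 TPM).

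HOXC members stayed under 10 TPM, apart from HOXC10 in COV504 and OVMANA and HOXC9 in COV504. HOXC10, a hindlimb and lumbar gene, had 16.5 TPM in COV504, 12.3 in OVMANA, and 0.82 to 2.14 TPM in IGROV-1, with no count in the other 4 lines. It was higher than in IGROV-1 by log2 changes of 2.98 in COV504 and 2.70 in OVMANA (edgeR adjusted p = 0.0018 and 0.0056), calls not made by DESeq2 (0.44 and 0.53). HOXC9, a thoracic motor neuron gene, had 10.2 TPM in COV504, 5.13 to 9.82 in IGROV-1, 0.50 to 2.31 in OVKATE, SK-OV-3, OVMANA and OVTOKO, and no count in COV362. HOXC4, the most 3′ gene of the cluster, had 8.01 TPM in COV504, 4.05 in OVTOKO, 2.74 in COV362 and no count in the other 7 libraries. HOXC6 reached 4.89 TPM and HOXC5 1.34 TPM. HOXC11, HOXC12 and HOXC13 were detected in COV504 alone, with 2.22, 0.44 and 0.44 TPM, and HOXC8 reached 1.07 TPM in OVMANA.

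In HOXD, the 3′ end was high in OVKATE and OVMANA and the middle in SK-OV-3. HOXD1, a gene of pain-sensing neurons at chr2:176188579-176190907, had 24.6 TPM in OVMANA, 8.90 in OVKATE, 4.89 in COV504, 2.03 in SK-OV-3, 1.16 in OVTOKO and none in COV362 or the 4 IGROV-1 libraries. It was at least 38.3-fold higher in OVMANA than in IGROV-1 (edgeR adjusted p = 0.00069, DESeq2 0.011). The folds of at least 13.9 in OVKATE and 7.6 in COV504 were called by edgeR (adjusted p = 0.0037 and 0.010) and not by DESeq2 (0.056 and 0.12).

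HOXD3, which patterns the neck vertebrae, had 32.6 TPM in OVKATE (95% Poisson interval 25.2 to 41.5), 2.14 in OVMANA, 1.34 in COV504, 0.51 in SK-OV-3, 0.39 in COV362 and 0 in OVTOKO. IGROV-1 had 1.71 and 0 TPM on PromethION and 0.27 and 0.31 on MinION. OVKATE was higher by a log2 change of 4.87 (SE 0.66, edgeR adjusted p = 0.00053), a call not made by DESeq2 (adjusted p = 0.11). HOXD3 passed the filter only through OVKATE, where it was high, so this p-value lends the difference no support. HOXD4, a hindbrain gene, had 11.4 TPM in OVKATE, 5.48 in COV362, 4.0 in COV504, 0.51 to 0.53 in SK-OV-3 and OVMANA, 0 in OVTOKO and 0.55 to 2.14 in IGROV-1. For HOXD4 the log2 change in OVKATE was 2.58 (edgeR adjusted p = 0.011, DESeq2 0.51). HOXD4 passed the filter only through OVKATE and COV362, so its edgeR p-value has the same limit.

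HOXD8, a trunk gene, had 26.3 TPM in SK-OV-3, 9.83 in OVTOKO, 7.91 in OVKATE, 4.81 in OVMANA, 4.45 in COV504, 3.53 in COV362 and 2.58 to 3.71 in IGROV-1. HOXD9, active in forelimb and trunk, had 15.7 TPM in SK-OV-3, 12.5 in COV504, 7.84 in COV362, 6.92 in OVKATE, 2.89 in OVTOKO, 0.53 in OVMANA and 3.55 to 6.49 in IGROV-1. SK-OV-3 was the highest line for both, by log2 changes of 2.99 for HOXD8 and 1.56 for HOXD9 over IGROV-1 (edgeR adjusted p = 0.00055 and 0.022). DESeq2 made neither call (0.14 and 0.58). HOXD8 passed the filter only through lines in which it exceeded IGROV-1, so its edgeR p-value lends the difference no support. HOXD13, a digit gene, had 4.05 TPM in SK-OV-3 and at most 0.82 TPM elsewhere, and HOXD10 and HOXD11 stayed at or under 0.78 TPM.

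HOX levels in IGROV-1 were also compared between instruments. In the fit of the 4 libraries 13 members were tested, and edgeR with Benjamini-Hochberg adjustment called 0 of them, where 0.817% of all tested genes were called. DESeq2 also called 0, with 0.370% of all genes called. At an unadjusted p under 0.05 edgeR found 1 member, HOXB4. Its log2 difference (MinION minus PromethION) was 0.41 (SE 0.15, edgeR adjusted p = 0.25). The 13 differences ranged from -0.60 (HOXB13) to 0.55 (HOXB8). The differences described above between SK-OV-3, OVKATE or OVTOKO and IGROV-1 for HOXB7 exceeded this range. The line comparisons were all within PromethION, so this range does not measure the error of a line with 1 library.

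The deposited annotation held 68 HOX transcripts, of which 50 had at least 1 count in some library. Shares were taken where a gene had at least 20 counts. HOXA3 was split between HOXA3-202, a transcript of 3 exons that starts in the window without CG dinucleotides shown above, and HOXA3-207, a transcript of 4 exons whose start lies 7425 bases further 5′. HOXA3-202 took 56.9% of HOXA3 counts in OVMANA, 60.8% in OVTOKO, 58.9% in COV362, 64.3% in COV504, 58.9% and 60.8% in IGROV-1 on PromethION and 61.7% and 63.4% on MinION. The 8 shares lay within 7.4 percentage points of each other, and each lay within the 95% Wilson interval of OVMANA (41.0% to 70.7%).

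HOXA10 had HOXA10-201, a transcript of 2 exons, as its main transcript, with 95.6% of counts in OVMANA (95% Wilson interval 82.7% to 98.5%), 96.0% in OVKATE (80.5% to 99.3%) and 89.3% in OVTOKO (72.8% to 96.3%). In COV504 its share was 64.1% (50.7% to 75.7%), and HOXA10-206, of 3 exons, took 35.9% of 53 counts (24.3% to 49.3%). The COV504 interval overlapped that of OVTOKO but not those of OVMANA and OVKATE. These are single libraries, and the difference between them was not tested.

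HOXB6-203 took 98.3% of HOXB6 counts in SK-OV-3, 98.3% in COV362, 97.9% in COV504, 94.5% and 98.4% in IGROV-1 on PromethION and 85.2% and 87.3% on MinION. The MinION shares were the lowest of the 7. HOXB3-205 took 95.9% to 100% of HOXB3 counts. In SK-OV-3, HOXD8 was divided between HOXD8-202 (62.7%) and HOXD8-201 (33.4%). The other named genes with several transcripts and at least 20 counts had a single one above 80%.

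Differences in transcript usage could be tested for 4 HOX genes, HOXA3, HOXA10, HOXB6 and HOXD8, in the 6 comparisons with IGROV-1. edgeR's usage test with Benjamini-Hochberg adjustment called 0 in each, where it called 2.75% of tested genes in OVMANA, 4.97% in OVKATE, 1.35% in OVTOKO, 2.07% in SK-OV-3, 2.98% in COV362 and 2.56% in COV504. At an unadjusted p under 0.05 there was 1, HOXB6 in OVMANA (edgeR adjusted p = 0.077), a line with 3.21 TPM of the gene. For HOXA10 the comparison is empty, since IGROV-1 had next to no counts of it. Others were near empty: OVKATE had 0 counts of HOXB6 and 2 of HOXA3. OVMANA had 6 and OVTOKO 9 counts of HOXB6, and the IGROV-1 PromethION libraries had 7 and 6 of HOXD8. With so few counts, the lack of a call does not show that usage was unchanged. No other tool was run for usage.

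**Figure D5:**
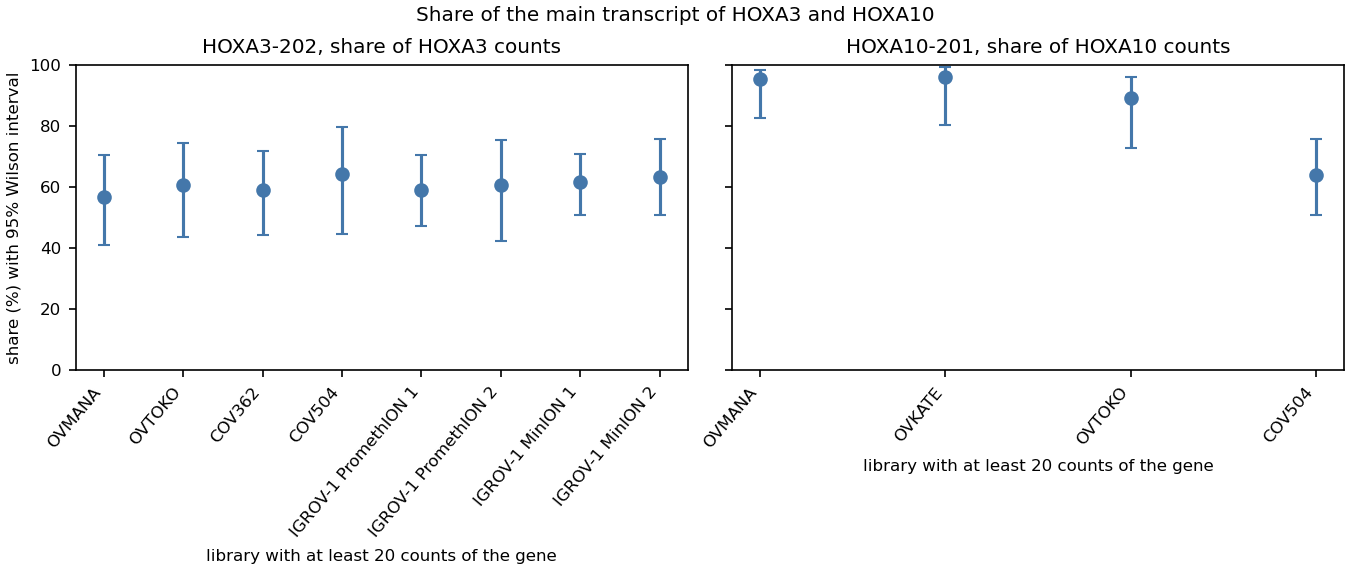
Share of counts (y axis, %, with 95% Wilson intervals) of HOXA3-202 (left) and HOXA10-201 (right) in each library with at least 20 counts of the gene (x axis). HOXA3-202 lies between 56.9% and 64.3% in all 8 libraries, and HOXA10-201 is lowest in COV504 at 64.1%.

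The partners and regulators of HOX genes were tested in the same fit, by edgeR with Benjamini-Hochberg adjustment. Over all tested genes 18.2% to 26.8% were called higher and 15.9% to 22.4% lower in the 6 comparisons, and the counts of each list are to be read against these shares. Of 9 TALE cofactors 6 were tested, and 0 to 3 were higher and 1 to 3 lower than IGROV-1 in the 6 comparisons. MEIS1, which binds DNA with 5′ HOX proteins, had 126 TPM in COV362, 35.1 in OVKATE, 31.1 in COV504, 26.3 in SK-OV-3 and no count in OVMANA, OVTOKO or IGROV-1. MEIS2 had 27.5 to 36.5 TPM in IGROV-1, 10.2 in COV504, 7.09 in SK-OV-3, 4.31 in COV362 and at most 1.07 in OVMANA, OVTOKO and OVKATE. MEIS1 was called higher in the 4 lines that had it (edgeR adjusted p at most 0.00029), and MEIS2 lower in all 6 lines (edgeR adjusted p at most 0.0023).

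All 19 Polycomb genes were tested, and 0 to 4 were higher and 3 to 7 lower than IGROV-1. Their median log2 change lay between -0.49 and -0.13, where the median of all tested genes lay between -0.01 and 0.04. RNF2, the ubiquitin ligase of Polycomb complex 1, was called lower in OVKATE by -2.02, OVMANA by -1.68, COV504 by -1.58, COV362 by -1.43 and OVTOKO by -1.19 on the log2 scale, with edgeR adjusted p of at most 0.014. EZH2, the H3K27 methyltransferase, was called higher in COV362 alone (log2 change 1.72, edgeR adjusted p = 0.0016). Of 11 trithorax and H3K27 demethylase genes 0 to 2 were higher and 2 to 5 lower. Geminin, a single-gene list, was called lower in 3 lines and higher in none.

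Of 13 retinoid and CDX regulators 8 were tested, and 1 to 3 were higher and 0 to 1 lower. CRABP2, a carrier of retinoic acid, had 970 TPM in OVKATE, 142 in OVMANA, 60.3 in COV362, 49.4 in COV504, 12.7 in OVTOKO, 4.05 in SK-OV-3 and at most 1.36 in IGROV-1. CDX1 and CDX4 had no count in any library and CDX2 at most 0.99 TPM.

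Of 28 noncoding and neighbouring genes of the clusters 5 were tested, and 1 to 3 were higher and 0 to 3 lower. HAGLR and HAGLROS, which are transcribed near HOXD1 and HOXD3, were highest in OVKATE (26.2 and 21.8 TPM) and had at most 1.54 and 0 TPM in IGROV-1. In OVMANA they had 9.62 and 15.5 TPM. HOXD-AS2 was highest in OVTOKO at 57.8 TPM, against 8.54 and 12.5 in IGROV-1 on PromethION (log2 change 2.53, edgeR adjusted p = 0.00026). HOXA-AS2 was highest in IGROV-1 on PromethION (17.5 and 19.8 TPM). HOTAIR and HOTTIP, noncoding RNAs of HOXC and HOXA, had at most 0.44 and 0.31 TPM. Whether counting used strand is not given in the sources used here, so reads of a HOX gene and its antisense partner may not be told apart.

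The marker lists were tested in the same way. Of 5 epithelial markers 4 to 5 were called higher than in IGROV-1 in each line and none lower. Of 5 Müllerian markers 0 to 4 were higher and 0 to 2 lower. The fibroblast list had 4 of 6 tested, with 4 higher in SK-OV-3, 3 in COV504, 1 in COV362 and 0 in the other 3 lines. The summed fibroblast level ranged from 0.58 to 435 TPM over the libraries, and the HOXB sum of SK-OV-3, COV504 and COV362 exceeded that of the 3 lines without fibroblast calls. IGROV-1 had a HOXB sum of 229 to 268 TPM, with COL1A2 at most 0.43 TPM, COL3A1 at most 0.31 TPM and no count of LUM. Its COL1A1 lay between 4.91 and 22.9 TPM, against 4.31 in COV362 and 30.2 in OVKATE. In all libraries DCN was at most 0.58 TPM and PDGFRB at most 0.86 TPM. Of 3 endothelial markers 2 were tested and 0 to 1 were higher, and none of the leukocyte markers passed the filter. The part of these markers in the HOX levels was not tested.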

How the data were processed

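RNA of 7 ovarian cancer cell lines was sequenced on nanopore instruments in 10 libraries. Per the submitters' processing notes, minimap2 2.24-r1122 and GRCh38 were used. Not given in the sources used here are the basecaller, quantification settings, annotation release, filters and use of strand. Per the labels' protocols, the ligation kit's end repair was lengthened to 30 min. The authors deposited estimated counts per transcript, which need not be whole, and TPM values. The deposited TPM equalled the CPM (counts scaled by the library total) to within 5.6e-11. Totals lay between 1729782 and 3666224.

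Transcript estimates were summed per gene and rounded for count tests. edgeR 4.0.16 (R 4.3.3), with TMM, its expression filter and Benjamini-Hochberg adjustment, was fitted to all 10 libraries (13030 genes, 2 residual degrees of freedom, biological coefficient of variation 11.7%), and to the 4 IGROV-1 libraries for the instruments (10041 genes). Tests were two-sided at 0.05. Standard errors were derived from the change and its F value. Transcript usage was tested with edgeR's exon-level procedure and a Simes p. DESeq2 1.42.0, other scaling, no filter, other sample sets and leaving out libraries were alternatives. A line with 1 library is assumed to vary like IGROV-1. Scripts were tested on simulated data. Intervals are 95% Wilson (shares) or Poisson (levels), and folds against 0 use a floor of 3 counts over the group. The other side of such a fold is the measured level, without its counting error. All 68 HOX transcripts were found in GENCODE 29, and 67 had the same coordinates. Sequences are from GENCODE 29 and RefSeq.

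Genes reaching 10 TPM in a library were described in every library, and others by ranges. Named transcripts were the main one and any above 20% of at least 20 counts, and from the lists of other genes up to 3 called members each. Lists covered TALE cofactors, Polycomb, trithorax, retinoid and CDX regulators, geminin, noncoding neighbours and cell type markers. The members and lists were chosen with earlier results of these data known. Some values are not reported here.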

Additional observations from a re-analysis of the deposited data

How the results depend on the processing

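No change of a named HOX gene between a line and IGROV-1 reversed under any alternative run. Of 70 called changes, 28 held in all 10 alternatives, and 57 held in all but DESeq2. DESeq2 made the same call for 28 of 70 and counted 6 members in OVMANA, 9 in OVKATE, 6 in OVTOKO, 3 in SK-OV-3, 1 in COV362 and 3 in COV504, in place of 11, 19, 10, 16, 13 and 12. Its own test set was larger (20740 genes), and the cause was not tested. The 13 calls lost under an edgeR alternative were HOXA3, HOXB5, HOXB8, HOXC9 and HOXC10 in SK-OV-3, HOXA7, HOXA10 and HOXC10 in COV362, HOXB8 and HOXB9 in OVMANA, HOXB9 in OVTOKO, HOXC10 in OVKATE and HOXD9 in COV504, with adjusted p up to 0.12. Leaving out an IGROV-1 library moved the pair calls between 176 and 289. Between instruments, a replicate block called 1 of 13 members, HOXB4 (log2 difference 0.41, edgeR adjusted p = 0.0031), in place of 0, with 19.7% of all genes called in place of 0.8%. The same-numbered libraries share only a number in the labels, and their deviations correlated at 0.488 over 7901 genes. With at least 5 counts, OVMANA had 12 and OVTOKO 11 detected genes, in place of 21 and 23. Scaled by the TMM effective library size, in TPM, the HOXB sum was 69.9 in OVKATE and 637 in SK-OV-3 and the HOXD sum of OVKATE was 57.0. With mitochondrial ribosomal RNA left out of the total, the HOXB sum of IGROV-1 on PromethION was 267. Values under about 10 counts and all results of lines with 1 library are limited by depth and by the lack of replicates.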
